A study of Homo sapiens with 18 samples.

Results

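The 10 genes described here encode the NF-kB transcription factor subunits and proteins that regulate them. The subunits are RELA, RELB, REL, NFKB1 and NFKB2. The regulators are the IkB family members NFKBIA, NFKBIB, NFKBIE and BCL3, and the ubiquitin-editing enzyme TNFAIP3. The 10 genes were taken by gene symbol from the 61487 gene identifiers of the deposited count table, and all were among the 18544 genes tested. The cells were MSC-hTERT, a line of human mesenchymal stem cells immortalized with the catalytic subunit of telomerase. Each of the 6 groups had 3 RNA-seq libraries, named for what the cells expressed: pMSCV (a retroviral vector's name, read as the control), SRF (serum response factor, a transcription factor), or a fusion of SRF with FOXO1, ICA1L, PDGFRB or RELA. The comparisons ask what SRF and each fusion change, and the SRF-RELA fusion joins SRF to a gene of the family itself. All groups share the cell line and its culture medium, and no source used here says whether the 3 libraries of a group came from separate cultures, so p-values measure the spread between these libraries, which may be technical.

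NF-kB proteins bind DNA as pairs of subunits. RELA, RELB and REL carry a domain that activates transcription, while NFKB1 and NFKB2 make precursor proteins that are processed into p50 and p52, which lack that domain. IkB proteins such as NFKBIA keep the pairs in the cytoplasm until a kinase complex marks the IkB protein for destruction, unlike the nuclear BCL3. NFKBIA and TNFAIP3 are known as targets of NF-kB that switch the pathway off again. In mesenchymal stem cells the pathway is known for driving cytokine and chemokine genes under inflammatory signals.

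Promoter sequences are shown because several of these genes are known to be controlled by NF-kB itself. RefSeq promoter windows (GRCh38.p14) matched 8 of the 10 genes, in 13 windows; RELB and NFKBIE had none in the table. The 250 bases before each start were searched on both strands for a kappaB motif, GGGNNNTTCC. It was found in 7 of the 13 windows and in 6 of the 8 genes, against 5.67% of 35116 windows and 6.87% of 27305 genes in the whole table. The CArG box, the sequence that SRF binds, was searched in the same windows and matched in 0 of the 8 genes, against 1.44% of all genes. Such a match describes the letters only. The RefSeq starts differ from the gene positions given below, so several of the matches lie inside the gene as placed there. Each line below gives 30 bases, 5′ to 3′ on the strand of the gene, with the letters of a match in capitals.
REL, chr2:60881518-60881547, plus strand: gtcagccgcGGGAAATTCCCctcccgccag
NFKB1, chr4:102501300-102501329, plus strand: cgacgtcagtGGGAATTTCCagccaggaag
NFKB2, chr10:102394462-102394491, plus strand: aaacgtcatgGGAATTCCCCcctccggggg
NFKB2, chr10:102394490-102394519, plus strand: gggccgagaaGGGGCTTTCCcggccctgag
NFKB2, chr10:102395674-102395703, plus strand: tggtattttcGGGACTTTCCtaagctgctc
NFKBIA, chr14:35404811-35404840, minus strand: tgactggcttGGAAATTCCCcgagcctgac
NFKBIB, chr19:38899932-38899961, plus strand: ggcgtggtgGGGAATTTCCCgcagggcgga
TNFAIP3, chr6:137867188-137867217, plus strand: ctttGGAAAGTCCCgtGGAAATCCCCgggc
In REL and in NFKBIB the capitals hold 2 overlapping matches, 1 on each strand, and in TNFAIP3 they hold 2 separate matches. NFKB2 has its 3 matches in windows of 2 different starts. The windows of RELA and BCL3 held none. Without its first G the motif matched in 8 of the 13 windows, that of BCL3 among them, against 17.1% of 35116 windows.

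Total counts per library ran from 19362319 to 29806771, and levels are given in CPM, a library's counts scaled to its total. Each of the 7 mesenchymal markers was present in each library, with COL1A1 at 4821 to 20590 CPM, while PTPRC, the general marker of blood cells, had 1 to 8 counts a library, and CD3E and TYROBP had 0 in all 18. PECAM1, an endothelial marker that should be absent, was at 4.31 to 27.96 CPM. Of the other markers that should be absent, CD34 was at 0.46 to 3.47 CPM, and HLA-DRA reached 2.44 CPM with 0 counts in 7 libraries. In the construct check, SRF had a mean of 61.0 CPM with the vector (SD 3.56, n = 3) and means of 182 to 945 CPM in the other groups. ICA1L rose in SRF-ICA1L (log2 fold change 3.43), whereas PDGFRB in SRF-PDGFRB was not called (0.73, SE 0.23, edgeR adjusted p 1). FOXO1 had 12.6 ± 4.27 CPM with the vector, and the libraries labelled SRF-FOXO1 had 9.79 ± 3.99 CPM (-0.30, SE 0.36, edgeR adjusted p 0.727), so it does not check that label. The libraries SRF replicate 3 and SRF-FOXO1 replicate 1 stood apart in the length of the RNA they favoured, which is given with REL below.

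**Figure D1:**
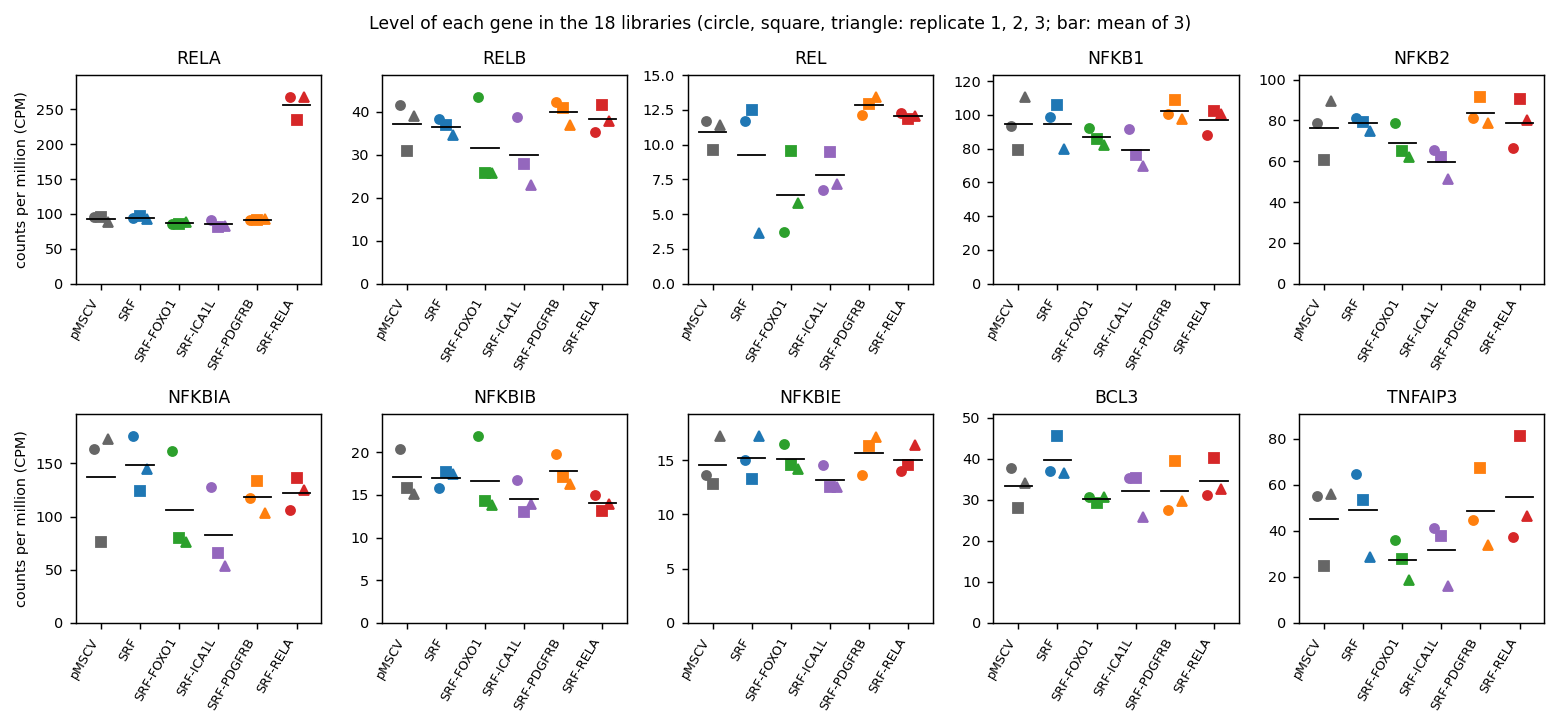
CPM of the 10 genes in the 18 libraries, by group (circle, square and triangle for replicates 1, 2 and 3, a bar for the mean of 3; each panel has its own axis from 0). RELA stands at 234 to 268 CPM in SRF-RELA and at 81.0 to 97.5 CPM elsewhere, whereas the panels of the other 9 genes show groups that mostly overlap.

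RELA (ENSG00000173039, chromosome 11:65653596-65663094, minus strand, GRCh38 with GENCODE release 29), the main activating subunit, was the one member that rose. Its level was 266.9, 234.1 and 267.7 CPM in the 3 SRF-RELA libraries and 95.6, 95.3 and 89.0 CPM in pMSCV. In the 15 libraries outside SRF-RELA it ran from 81.0 to 97.5 CPM with a median of 90.8 and a coefficient of variation of 5.21%, so that the SRF-RELA libraries did not overlap any other. The mean was 2.75-fold that of pMSCV, or 1.51 on the log2 scale (SE 0.08, edgeR adjusted p 5.78e-08). Against SRF it was 1.46 (edgeR adjusted p 9.45e-08), and against the other fusions 1.53 to 1.55. The fusion carries RELA sequence, and these counts hold native and construct reads together, so the level of the cells' own RELA cannot be told apart from that of the construct. In the same libraries the excess over pMSCV was 162.9 CPM for RELA and 265.3 CPM for SRF. Of the variance of RELA over the 18 libraries, 99.2% lay between groups, where the median tested gene had 33.4%.

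Among the 10 members, 1 was called in SRF-RELA against pMSCV, at an adjusted p-value under 0.05 in edgeR's quasi-likelihood test, where 0.183% of all tested genes were called. RELA was likewise the 1 member called in SRF-RELA against SRF (background 0.388%), against the libraries labelled SRF-FOXO1 (0.00539%), against SRF-ICA1L (0.0108%) and against SRF-PDGFRB (0.162%). These shares include RELA itself, which was the 1 gene called against the libraries labelled SRF-FOXO1 and 1 of the 2 called against SRF-ICA1L. No member was called in SRF against pMSCV (0.027% of tested genes), in the libraries labelled SRF-FOXO1 against pMSCV (0.928%), in SRF-ICA1L against pMSCV (0.469%) or in SRF-PDGFRB against pMSCV (0.0324%). The count was also 0 of 10 for the libraries labelled SRF-FOXO1 against SRF (1.36%), SRF-ICA1L against SRF (0.782%) and SRF-PDGFRB against SRF (0.146%). These comparisons share control libraries. The DESeq2 Wald test gave the same number of called members in each of the 12 comparisons. Against pMSCV it called 0.131% of the genes it tested for SRF, 2.38% for the libraries labelled SRF-FOXO1, 1.5% for SRF-ICA1L, 0.0776% for SRF-PDGFRB and 0.511% for SRF-RELA. Against SRF the shares were 3.49% for the libraries labelled SRF-FOXO1, 2.03% for SRF-ICA1L, 1.31% for SRF-PDGFRB and 0.777% for SRF-RELA. For SRF-RELA it called 0.0741% against the libraries labelled SRF-FOXO1, 0.00987% against SRF-ICA1L and 0.514% against SRF-PDGFRB.

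At an unadjusted p under 0.05, edgeR and DESeq2 counted the same numbers of members. The count was 0 of 10 in SRF against pMSCV (5.38% of tested genes by edgeR), in the libraries labelled SRF-FOXO1 against pMSCV (15.1%), in SRF-ICA1L against pMSCV (10.8%), in SRF-PDGFRB against pMSCV (2.1%), in the libraries labelled SRF-FOXO1 against SRF (14.4%) and in SRF-PDGFRB against SRF (12%). It was 1 in SRF-ICA1L against SRF, for NFKBIA (11.8%). In SRF-RELA it was 1 against pMSCV (3.83%), against SRF (9.54%) and against SRF-PDGFRB (3.87%), in each case RELA. It was 3 against the libraries labelled SRF-FOXO1 (10.4%), where REL and TNFAIP3 joined RELA, and 2 against SRF-ICA1L (3.06%), where NFKB2 did. With the replicate number as a block, edgeR counted 1 in SRF-ICA1L against pMSCV (17.9% of tested genes). Against SRF it counted 1 in the libraries labelled SRF-FOXO1 (22.6%) and 1 in SRF-PDGFRB (19.1%). For SRF-RELA it counted 2 against SRF (16.5%), 3 against SRF-ICA1L (6.76%) and 2 against SRF-PDGFRB (7.3%). The other comparisons kept their counts.

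**Figure D2:**
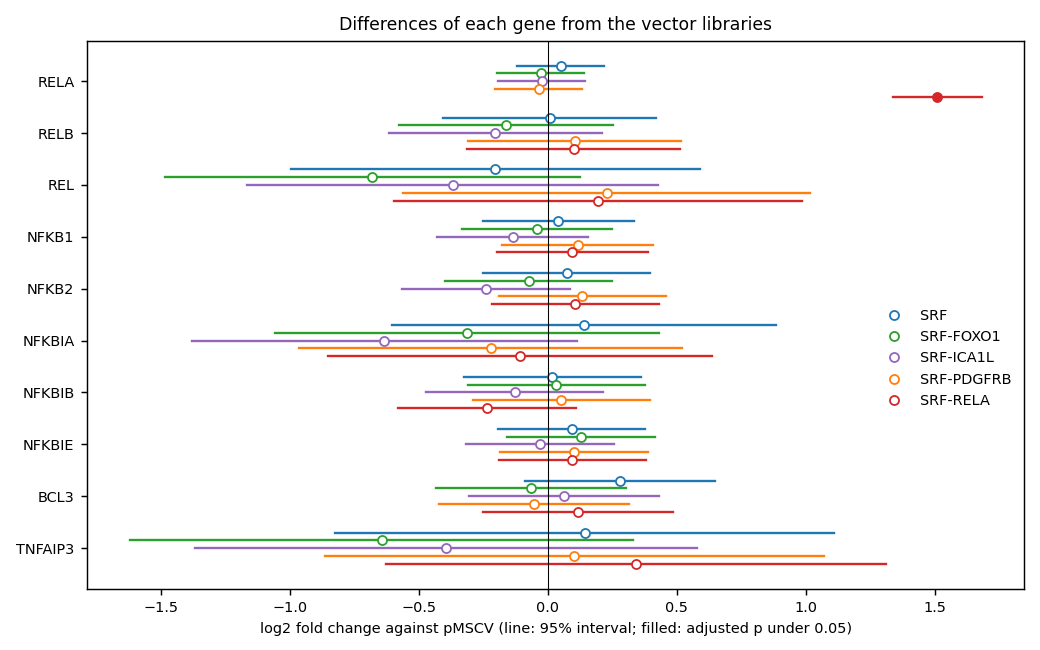
Log2 fold change of each of the 10 genes in SRF and the 4 fusions against pMSCV, with 95% intervals as lines and filled points for an adjusted p under 0.05. RELA in SRF-RELA, at 1.51, is the single filled point, and the intervals of the other genes cross 0 and are widest for TNFAIP3, REL and NFKBIA.

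The other activating subunits are RELB, which pairs mostly with p52 in the non-canonical branch of the pathway, and REL, known best from lymphocytes. RELB (ENSG00000104856, chromosome 19:45001430-45038198) had 37.1 ± 5.56 CPM with the vector and 38.3 ± 3.13 CPM with SRF-RELA (SD, n = 3), a log2 fold change of 0.10 with a 95% interval from -0.31 to 0.51. Its highest level was 43.4 CPM, 1.89 times its lowest. The lowest value came from SRF-ICA1L replicate 3 and the highest from SRF-FOXO1 replicate 1, and the libraries of both groups spread more widely than the 6 group means.

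REL (ENSG00000162924, chromosome 2:60881521-60931610) was uneven within groups. It was at 11.7, 9.59 and 11.4 CPM in pMSCV and at 12.3, 11.8 and 12.03 CPM in SRF-RELA. In SRF it was at 11.7, 12.5 and 3.65 CPM, and in the libraries labelled SRF-FOXO1 at 3.69, 9.55 and 5.83 CPM. In SRF-ICA1L it was at 6.73, 9.48 and 7.14 CPM. The lowest values belong to SRF replicate 3 and to SRF-FOXO1 replicates 1 and 3, and the other SRF libraries lie near or above the highest pMSCV value. In CPM all 3 SRF-ICA1L libraries lie below the lowest of pMSCV. With the TMM scaling used for the tests, SRF-ICA1L replicate 2 (0.165 log2 units from the mean of REL) lies above pMSCV replicate 2 (0.00388). None of its log2 fold changes was called, the lowest being -0.68 (SE 0.38, edgeR adjusted p 0.411) in the libraries labelled SRF-FOXO1 against pMSCV. Without SRF replicate 3 the log2 fold change of these libraries against SRF was -0.86 (edgeR adjusted p 0.0992) instead of -0.48. That fit kept SRF-FOXO1 replicate 1, at 3.69 CPM. It is given because its adjusted p was the lowest of any member other than RELA when settings were changed.

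REL has a long mRNA, 11255 bases in its longest protein-coding transcript, and its level moved with those of other genes with long mRNAs. The median deviation of 1178 tested genes with mRNAs of at least 8000 bases from their own means was -0.46 log2 units in SRF replicate 3 and -0.36 in SRF-FOXO1 replicate 1, and -0.09 to 0.12 in the other 16 libraries. The 2794 genes with mRNAs under 2000 bases were at 0.34 and 0.32 in the same libraries. Across the 18 libraries, REL and the median of the long genes had Pearson's r of 0.955 and Spearman's rho of 0.821. Without SRF replicate 3 and SRF-FOXO1 replicate 1 the r was 0.904. The libraries share depth and preparation, REL is 1 of the genes with long mRNAs, and the part of RNA length in the level of REL was not tested. Among the other 9 members, the r with the long genes ran from -0.359 to 0.45 over the 18 libraries and from 0.232 to 0.671 without those 2, so the distance between REL and the rest narrowed. In SRF-ICA1L replicates 1 and 3, where REL was also below pMSCV, the long genes were at -0.02 and -0.07.

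**Figure D3:**
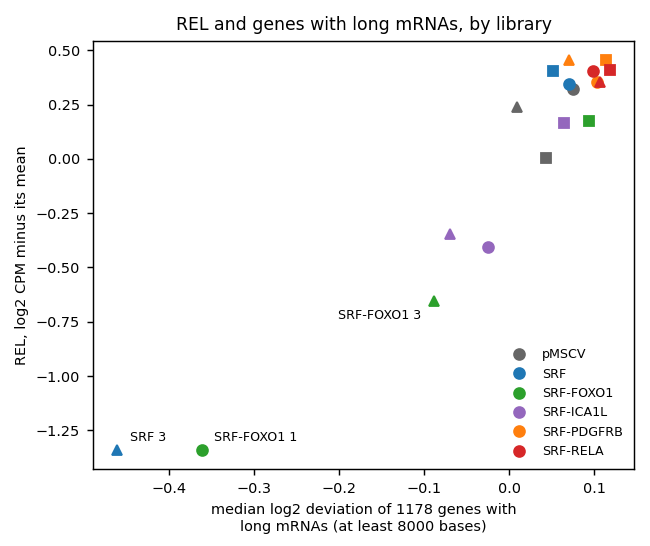
Level of REL (log2 CPM minus its mean) against the median deviation of 1178 genes with long mRNAs in the 18 libraries, colored by group with circle, square and triangle for replicates 1, 2 and 3. SRF replicate 3 and SRF-FOXO1 replicate 1 lie lowest on both axes, at -0.46 and -0.36 on the horizontal one.

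The precursor genes NFKB1 (ENSG00000109320, chromosome 4:102501329-102617302) and NFKB2 (ENSG00000077150, chromosome 10:102394110-102402529) varied little, with highest levels 1.58 and 1.78 times the lowest. NFKB1 ran from 70.0 CPM in SRF-ICA1L replicate 3 to 110.7 CPM in pMSCV replicate 3, and NFKB2 from 51.4 CPM in SRF-ICA1L replicate 3 to 91.5 CPM in SRF-PDGFRB replicate 2. In SRF-RELA against pMSCV, NFKB1 had a log2 fold change of 0.09 (95% interval -0.20 to 0.39) and NFKB2 of 0.11 (-0.22 to 0.43), and the libraries of both groups overlapped. NFKB2 was at 65.6, 62.1 and 51.4 CPM in SRF-ICA1L and at 66.5, 90.3 and 79.98 CPM in SRF-RELA. In CPM these groups did not overlap. With the TMM scaling used for the test they did, as NFKB2 deviated by -0.147 log2 units in SRF-RELA replicate 1 and by -0.118 in SRF-ICA1L replicate 1. The log2 fold change of 0.35 for SRF-RELA over SRF-ICA1L was not called (unadjusted edgeR p 0.0381). A parting of 3 against 3 libraries without overlap has an exact two-sided permutation p of 0.1. The share of all tested genes that part in this way was not counted. Both limits hold for each such parting named here.

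NFKBIA (IkB-alpha, ENSG00000100906, chromosome 14:35401511-35404749), an IkB protein that NF-kB is known to induce early, spread widely within groups. Its levels were 163.7, 75.9 and 173.0 CPM in pMSCV, 175.6, 124.2 and 144.4 CPM in SRF and 106.6, 136.7 and 124.6 CPM in SRF-RELA. SRF-RELA lay inside the range of pMSCV, with a log2 fold change of -0.11 (95% interval -0.85 to 0.63). In SRF-ICA1L it was at 127.4, 66.0 and 53.5 CPM, and in the libraries labelled SRF-FOXO1 at 161.5, 80.1 and 75.95 CPM; in both, replicate 1 was high and the others low. SRF-ICA1L against SRF gave -0.77 (SE 0.35, unadjusted p 0.0437, edgeR adjusted p 0.403), with lower values in 3 of 3 pairs of the same number. Without SRF-ICA1L replicate 1 it was -1.22 (edgeR adjusted p 0.144). Leaving out SRF-ICA1L replicate 2 or 3, or SRF replicate 1 or 3, left 0 members at an unadjusted edgeR p under 0.05. In bulk RNA, fewer cells making a transcript and less of it per cell cannot be told apart.

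TNFAIP3 (A20, ENSG00000118503, chromosome 6:137867188-137883312), which trims ubiquitin chains that carry the signal, had the widest range of the 10 genes, 5.03-fold, from 16.1 CPM in SRF-ICA1L replicate 3 to 81.1 CPM in SRF-RELA replicate 2. It was at 55.2, 24.8 and 55.8 CPM in pMSCV and at 37.2, 81.1 and 46.3 CPM in SRF-RELA. The groups overlapped, and the log2 fold change of 0.34 had a 95% interval from -0.63 to 1.31, which holds both a 2-fold rise and a fall. Against the libraries labelled SRF-FOXO1, at 36.2, 27.7 and 18.5 CPM, SRF-RELA was higher without overlap. That log2 fold change was 0.99 (SE 0.46, unadjusted p 0.0489) and was not called after adjustment.

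The remaining IkB genes were more even. NFKBIB (IkB-beta, ENSG00000104825, chromosome 19:38899700-38908893) was at 20.3, 15.8 and 15.1 CPM in pMSCV, and at 14.97, 13.1 and 13.9 CPM in SRF-RELA. These CPM values did not overlap. With TMM scaling they did, as NFKBIB deviated by -0.0962 log2 units in SRF-RELA replicate 1 and by -0.149 in pMSCV replicate 3. The log2 fold change of -0.23 (95% interval -0.58 to 0.11) was not called. NFKBIE (IkB-epsilon, ENSG00000146232, chromosome 6:44258166-44265788) had the narrowest range of the 10 genes, 12.5 to 17.2 CPM over the 18 libraries. BCL3 (ENSG00000069399, chromosome 19:44747705-44760044), an IkB-like nuclear protein that works with p50 and p52, had its highest mean in SRF, with 37.0, 45.4 and 36.4 CPM. The libraries labelled SRF-FOXO1 were at 30.7, 29.1 and 30.6 CPM, below SRF without overlap, a log2 fold change of -0.35 that was not called (SE 0.17, edgeR adjusted p 0.379).

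As a list in SRF-RELA against pMSCV, the 10 members had a median log2 fold change of 0.10, beside -0.01 over all tested genes, and 8 of 10 were above 0. RELA is 1 of the 8, and its counts hold construct reads. None of the other 9 was called, and several of them vary together between libraries, so these signs are not independent. In SRF-ICA1L against pMSCV the median was -0.17 with 1 of 10 above 0, and in the libraries labelled SRF-FOXO1 it was -0.07 with 2 of 10 above 0. Leaving RELA aside, the 95% intervals of the other 9 members in SRF-RELA against pMSCV reached from -0.85 for NFKBIA to 1.31 for TNFAIP3.

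Levels between genes can be compared only per length of mRNA. Per kilobase in pMSCV, NFKBIA was highest (88.3 ± 34.4 CPM per kilobase, SD, n = 3), followed by RELA (29.3 ± 1.18). With the length of all exons together, RELA (17.07) and NFKB2 (17.02) were level in pMSCV, and NFKB2 came before RELA in SRF and SRF-PDGFRB. NFKB1 (23.1) and NFKB2 (22.3) came next and overlapped, as did BCL3 (16.3) and RELB (16.2), then TNFAIP3 (9.56) and NFKBIB (8.85). NFKBIE (5.65) and REL (0.969) were lowest, each below its neighbour without overlap. In SRF-RELA, RELA (80.5) reached the level of NFKBIA (78.7), their ranges overlapped, and which of them came first changed when the length of all exons together was used. The summed level of NFKBIA, NFKBIB and NFKBIE per unit of RELA, per kilobase, was 0.973, 1.36 and 1.11 in the SRF-RELA libraries and 2.07 to 4.49 in pMSCV. Over the 15 other libraries the lowest ratio was 1.775, so SRF-RELA lay below each of them. The reads of the construct are part of that denominator, and the exact permutation test of 3 against 3 libraries cannot give a two-sided p below 0.1.

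The members differed in how they varied between libraries. RELB, NFKB1, NFKB2, NFKBIA and TNFAIP3, chosen after their values were seen, moved together, with a Pearson's r between 0.699 and 0.888 for their 10 pairs over 18 libraries. After removing group and replicate number the r ran from 0.698 to 0.973. With the median deviation of 23 known NF-kB target genes (chemokines, adhesion molecules, SOD2 and others), the r was 0.939 for NFKB2, 0.856 for RELB and TNFAIP3, 0.839 for NFKBIA and 0.822 for NFKB1. Leaving out SRF-ICA1L replicate 3 and SRF-FOXO1 replicate 3, the 2 libraries farthest from the middle, the r fell to between 0.727 for RELB and 0.915 for NFKB2. RELA had an r of 0.171 with the same genes, and REL of 0.272. The counts of RELA hold construct reads, and 99.2% of its variance lay between groups. Its r therefore mainly parts SRF-RELA from the other libraries and does not describe native RELA. The libraries share preparation and groups, so these are descriptions with no test.

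**Figure D4:**
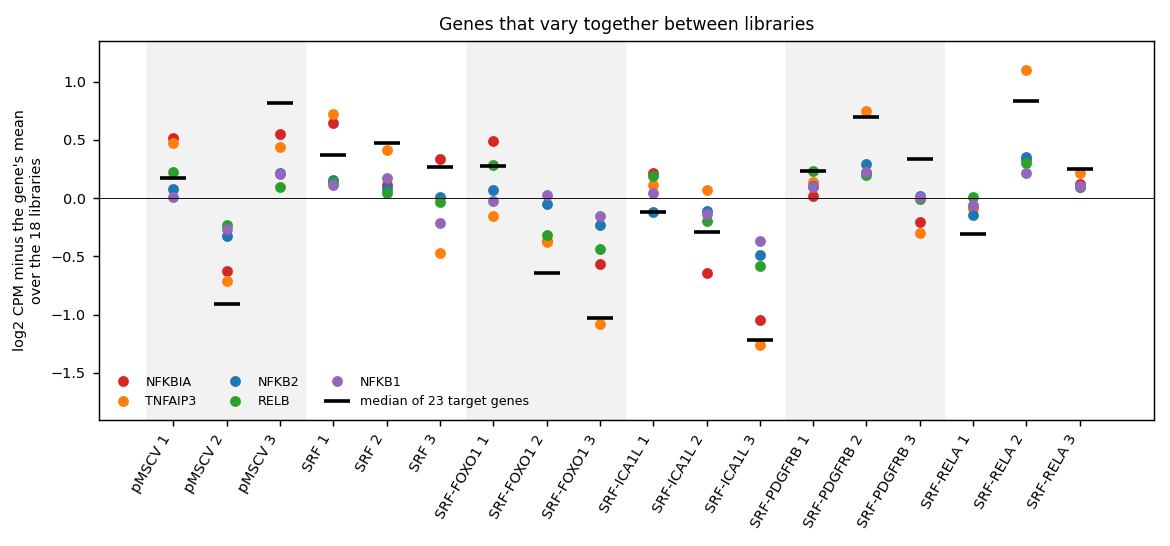
Deviation of NFKBIA, TNFAIP3, NFKB2, RELB and NFKB1 from each gene's mean (log2 CPM) in the 18 libraries, with a bar for the median of 23 NF-kB target genes. pMSCV replicate 2, SRF-FOXO1 replicate 3 and SRF-ICA1L replicate 3 lie below 0 for all 5 genes, and 8 libraries from 4 groups (2 each of pMSCV, SRF, SRF-PDGFRB and SRF-RELA) lie above 0 for all 5.

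The genes whose levels were most like each member's were sought among 12751 tested genes whose log2 CPM averaged at least 1. For NFKBIA they were WTAP (r 0.923), CXCL2 (0.923) and IER3 (0.913), and for NFKB2 they were SLC11A2 (0.931), CXCL8 (0.915) and LACC1 (0.905). TNFAIP3 was closest to SOD2 (0.929), NUMB (0.926) and SLC39A14 (0.917). RELB was closest to TMEM132A (0.914), IL1B (0.903) and RIPOR3 (0.892), and NFKB1 to LACC1 (0.864), MAP4K3 (0.855) and ICAM1 (0.854). REL was closest to NFAT5 (0.989), GPATCH2L (0.983) and DST (0.982). BCL3 was closest to IL13RA1 (0.869), CEBPD (0.841) and IL1R1 (0.84), and NFKBIB to GLRX2 (0.846), NARF (0.838) and AUP1 (0.831). NFKBIE had SPPL2A (0.768), ENSG00000218426 (0.755) and NCK1 (0.745). RELA, whose counts hold construct reads, had the lowest values, with SLC44A3-AS1 (0.668), DNAH14 (0.663) and ENPP1 (0.62). These genes each had their highest group mean in SRF-RELA. Of these 30 entries 4 belong to the target list.

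The rest of the pathway was followed in 79 further genes, ligands, receptors, adaptors and kinases, other inhibitors and targets, of which 74 were tested. LTA, TNFSF11, CD40LG, TNFAIP8L2 and SELE were too low. In SRF-RELA against pMSCV 0 of 74 were called by edgeR (0.183% of all tested genes) and 0 by DESeq2 (0.511%). At an unadjusted edgeR p under 0.05, 1 was higher and 1 lower (3.83% of all tested genes). Those were CXCL10, a chemokine (1.92, SE 0.89), and TNFRSF1B, a TNF receptor (-1.04, SE 0.41). CXCL10 was low in both groups, at 0.637, 0.043 and 1.87 CPM in pMSCV and 0.622, 4.87 and 3.93 CPM in SRF-RELA, and they overlapped. The 23 tested targets had a median log2 fold change of -0.04, with 11 above 0. The receptors had a median of -0.10, the adaptors and kinases 0.01, the ligands -0.16 and the other inhibitors 0.04. SOD2, the most abundant target, had 1225 ± 776 CPM with the vector and 1136 ± 540 CPM with SRF-RELA (SD, n = 3).

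None of the other pathway genes picked by the naming rule was called in SRF-RELA against pMSCV. Among ligands, IL1B, the most abundant, ran from 14.2 CPM in SRF-ICA1L replicate 3 to 217.8 CPM in SRF-PDGFRB replicate 2, with a log2 fold change of -0.27 (SE 0.83). TNFSF12 was at -0.14 and LTB, which stayed under 1 CPM in each library, at -0.39. Among receptors, LTBR, which signals to NFKB2, was the most abundant (121.8 to 163.9 CPM) and was at -0.13, and IL1RAP was at 0.54 (SE 0.34). TRAF5 was at 0.36 (SE 0.18), and MAP3K7 and TAB2, partners in the kinase complex upstream of IkB kinase, were each at 0.10. The inhibitors ITCH, TNIP1 and TAX1BP1 were at 0.17, 0.24 and -0.01. TNFAIP6, a secreted protein that binds hyaluronan, was at 0.95 (SE 0.58).

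The target list differed in its median between the other fusions. Against pMSCV, the median log2 fold change of the 23 targets was -0.76 in the libraries labelled SRF-FOXO1 and -0.80 in SRF-ICA1L, beside medians over all tested genes of 0.01 and -0.01, whereas it was 0.13 in SRF-PDGFRB, with 16 of 23 above 0. edgeR called 0 of the targets in these 3 comparisons, with 0, 7 and 1 at an unadjusted p under 0.05. Over all tested genes the unadjusted shares were 15.1%, 10.8% and 2.1%. DESeq2 called BIRC3 lower in SRF-ICA1L and CXCL10 higher in SRF-PDGFRB. CXCL8, a chemokine, had 256 ± 233 CPM with the vector, while the libraries labelled SRF-FOXO1 had 83.7 ± 93.9 CPM and those of SRF-ICA1L 48.0 ± 46.2 CPM. By library, the targets' median log2 deviation was 0.18, -0.91 and 0.82 in pMSCV, and -0.31, 0.83 and 0.25 in SRF-RELA. It was 0.28, -0.64 and -1.03 in the libraries labelled SRF-FOXO1, and -0.12, -0.29 and -1.22 in SRF-ICA1L. These groups overlapped. Targets measured in the same libraries are not independent, so the counts of signs carry no test. The log2 fold change of SRF-RELA was above 0 for 20 of 23 targets against the libraries labelled SRF-FOXO1 (median 0.53) and for 22 of 23 against SRF-ICA1L (median 0.63). It was above 0 for 9 of 23 against SRF-PDGFRB (median -0.15) and for 8 of 23 against SRF (median -0.22). edgeR called 0 of the targets in these 4 comparisons, with 3, 3, 2 and 0 at an unadjusted p under 0.05. Over all tested genes the unadjusted shares were 10.4%, 3.06%, 3.87% and 9.54%. DESeq2 called CXCL10 lower in SRF-RELA than in SRF-PDGFRB.

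With all 12 comparisons counted, edgeR called 2 of the 74 genes, each in 1 comparison, a share near the 1.36% and 0.782% of all tested genes called there. DESeq2 called 7, namely these 2 and TNFRSF1B, CXCL10, TLR2, IL1A and CD40. TNFRSF12A, the receptor of the cytokine TWEAK, rose in the libraries labelled SRF-FOXO1 against SRF (100.1 ± 13.4 against 49.3 ± 6.15 CPM, log2 fold change 1.08, edgeR adjusted p 0.0153). BIRC3, an inhibitor of apoptosis that NF-kB is known to induce, fell in SRF-ICA1L against SRF (9.55 ± 2.69 against 20.0 ± 1.63 CPM, -0.99, edgeR adjusted p 0.0326). Leaving out single libraries ended both calls while the fold changes moved little. TNFRSF12A was not called without SRF replicate 1 (log2 fold change 1.02, edgeR adjusted p 0.0874), SRF replicate 2 (1.01, 0.0844) or SRF-FOXO1 replicate 2 (0.91, 0.0832). BIRC3 was not called without SRF replicate 1 (-0.92, edgeR adjusted p 0.114), 2 (-1.03, 0.0968) or 3 (-1.04, 0.0553) nor without SRF-ICA1L replicate 2 (-0.88, 0.179) or 3 (-0.89, 0.154). When the fit held nothing but the 2 groups compared, the edgeR adjusted p was 0.133 for TNFRSF12A (1.07) and 0.152 for BIRC3 (-1.004). DESeq2 gave adjusted p-values of 0.000115 and 0.00104, and edgeR with the replicate block 0.00234 and 0.00351.

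Replicates with the same number deviated together, and including that number as a replicate block called more of these pathway genes but no further member. The genes it adds lie outside the rule for named genes, being picked once their values were known. In the libraries labelled SRF-FOXO1 against pMSCV (7.03% of tested genes called) it called PDLIM2 and TNFRSF12A higher and TNFRSF1B, TLR2 and TLR4 lower. In SRF-ICA1L against pMSCV (4.66%) it called IL1RAP higher and TNFRSF1B and BIRC3 lower. SRF-ICA1L against SRF (4.73%) gave TNIP3 and ITCH higher and IL1A, TNFRSF1B, TLR2, BIRC3 and TRAF1 lower. CXCL10 was higher in SRF-PDGFRB against pMSCV (0.178%), where it was at 43.6 ± 15.2 CPM beside 0.850 ± 0.932 CPM. Against SRF (2.34%) SRF-PDGFRB was higher for CXCL10, TNIP3 and CD40. SRF-RELA was higher than SRF for TNIP3, an inhibitor of the pathway (1.73%, log2 fold change 0.90, edgeR adjusted p 0.0173). TNIP3 had its lowest group mean in SRF (15.6 ± 5.74 CPM), beside 26.4 ± 1.69 CPM with the vector and 28.6 ± 10.3 CPM in SRF-RELA. SRF-RELA was lower than SRF-PDGFRB for TNFRSF1B and IRF1 (0.847%).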

How the data were processed

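MSC-hTERT RNA was sequenced from stranded mRNA libraries on an Illumina NovaSeq, per the labels' protocols. The authors deposited raw counts per Ensembl identifier, per the file headers. The submitters' processing notes name FastQC 0.11.8, Trimmomatic 0.39, HISAT2, featureCounts from Subread 2.0.3 and the build GRCh38. The annotation release and strand setting are not given in the sources used here. REL shares exonic bases with another annotated gene on its strand, and reads there may be split or lost.

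Of 61487 identifiers, 61369 were named from a gene-name table and 105 from GENCODE release 29, which also gave positions and lengths. CPM values are counts over the library total, without TMM factors. edgeR 4.0.16 (R 4.3.3) tested the 18544 genes kept by filterByExpr (minimum count 10) with TMM scaling, 1 coefficient per group over 18 libraries (12 residual degrees of freedom) and a robust two-sided quasi-likelihood F test, adjusted by Benjamini-Hochberg over all genes tested. Called means an adjusted p under 0.05. The standard error is the log2 fold change over the square root of F. The script was checked on simulated data. No pair of libraries held identical columns.

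Of the 45 same-numbered pairs of libraries across groups, 44 deviated together (r over 0.1, median 0.375, against -0.18 for 90 differently numbered pairs). Replicate 1 of SRF with that of SRF-FOXO1 fell short (0.0875). The pairing is thus read from the values. A fit with the number as a block (10 residual degrees of freedom), DESeq2 1.42.0, other scalings and filters, only the compared groups, and leaving out each library were alternatives.

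Named are the 10 members, SRF, the 3 genes most correlated with each member, and from each pathway list the 2 genes with the smallest p in SRF-RELA against pMSCV, the most abundant and any called gene. Members and lists were chosen with earlier results of these data known.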

Additional observations from a re-analysis of the deposited data

How the results depend on the processing

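The number of called members was the same under all alternatives in each of the 12 comparisons. RELA in SRF-RELA against pMSCV ranged from 1.46 to 1.55 on the log2 scale, with a largest edgeR or DESeq2 adjusted p of 0.00128, and was 1.51 with the replicate block. Of 65 alternative values of RELA in the SRF-RELA comparisons, 0 lost the call. The 115 uncalled log2 fold changes of members gave 1495 alternative values, of which 0 were called, 103 had the other sign and 28 moved by at least 1 standard error; the cause was not tested. Of 156 alternative counts of called pathway genes, 28 moved by more than 1.5 times. The replicate block raised them in the comparisons given above and, in the libraries labelled SRF-FOXO1 against SRF, whose numbers pair less clearly, from 1 to 4. DESeq2 raised them to 1 in the libraries labelled SRF-FOXO1 and in SRF-PDGFRB against pMSCV and in SRF-RELA against SRF-PDGFRB, and to 2 in SRF-ICA1L against pMSCV and in each of these 3 fusions against SRF. Scaling by total count called CXCL10 in SRF-PDGFRB against SRF. In SRF-ICA1L against pMSCV the count was 3 without SRF-ICA1L replicate 1. In SRF-FOXO1 against SRF it was 0 to 2, and in SRF-ICA1L against SRF 0 to 1, without 1 library, and both were 0 with only the compared groups. The lowest count of any member in a library was 105. The spread of TNFAIP3, REL and NFKBIA within groups left standard errors of up to 0.46 on the log2 scale, so moderate changes of these genes were not detectable.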
